A study of Drosophila melanogaster with 12 samples.

Results

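Long genes were examined as a set of 107 protein-coding genes on chromosome arm 2L of Drosophila melanogaster whose annotated span is 30 kb or more. A gene had to lie within the first 22.3 Mb of the arm and hold at least 100 reads pooled over all 12 libraries, counted on its own strand from its start to 1000 nt past its end. Of 2642 protein-coding genes in that region, 118 had the span. The genes chinmo, ab, brat, beat-IIIc, haf and Ggamma30A were left out by name (6 genes), and nub, kek3, Nos, CG46301 and dpp (5 genes) held 64 to 93 reads. The shortest members were ham (30033 nt), capu (30215 nt) and raw (30781 nt), and the longest genes just outside were Nhe2 (29688 nt), CG10947 (29508 nt) and Drgx (29370 nt). stol, with 100 reads, lay just inside the minimum of reads.

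The data are 3'READS and 3'READS+ libraries, in which RNA fragments with a poly(A) tail are captured and sequenced, so that each read marks where a transcript was cleaved and polyadenylated. Adult flies of the strain w1118, the wild type, gave 4 libraries of heads and 4 of bodies, and flies of the strain RpII215 gave 2 of each. RpII215 flies carry the C4 allele of the RNA polymerase II 215 gene, the gene of the enzyme's largest subunit, and the allele is known for slow elongation. Neither age nor sex of the flies, nor the number pooled per library, is given in the labels, and the strains may differ elsewhere in the genome, which cannot be told apart from the allele. No label says whether replicates came from separate animals, so that p-values measure the spread between these libraries, which may be technical.

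A library held between 2219693 and 9062730 reads, of which 3311 to 16005 fell on the long genes. Libraries fall into 2 blocks of sample numbers: the wild-type libraries numbered 1 and 2 form block 1, and block 2 has those numbered 3 and 4 together with every mutant library. The pair of mutant bodies was less alike (correlation 0.860 over 2156 genes) than the wild-type bodies of block 2 (0.957). Mutant body 1 was the farther from those wild-type bodies, at 0.751 and 0.804 against 0.867 and 0.900 for mutant body 2, and had 4.50% mitochondrial reads against 18.3 to 24.2% in the other bodies of block 2. Median changes in mutant bodies are therefore also given with each of them left out in turn, which leaves 1 library in that group. Levels are CPM, reads of a gene per 1000000 reads assigned to genes of the named regions of 2L and 3L, after TMM scaling. Photoreceptor markers (4 genes in the named regions) summed to 26127 to 107191 CPM in wild-type heads, 3590 to 4986 in wild-type bodies of block 1 and 27.9 to 59.7 in those of block 2. Accessory gland markers (5 genes) summed to 40.3 to 224 CPM in wild-type heads and 6044 to 9272 in wild-type bodies. Eggshell markers (4 genes) summed to 3.25 to 54.3 CPM in wild-type heads, 0 to 2.79 in wild-type bodies and 0.791 to 1.02 in mutant bodies. RpII215 itself lies outside the named regions and was not analysed here.

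In flies as in mammals, most of a long gene is intron, and many long genes are neuronal: they encode adhesion molecules, guidance receptors, ion channels and their regulators. RNA polymerase II must pass many cryptic and genuine poly(A) sites in the introns before it reaches the end of such a gene, and cleavage at an intronic site yields a shorter transcript that lacks the last coding exons. Past the stop codon, alternative sites in the 3'UTR leave the protein unchanged and set the length of the 3'UTR, and fly neurons are known for the use of distal sites there.

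The median span of the members was 47597 nt, and a median of 88.9% of the span was intron. sick, an actin regulator, was the longest (162060 nt, 2L:19796365-19958424, plus strand), followed by the receptor tyrosine phosphatase Lar (145447 nt), the RNA-binding protein gene bru1 (138435 nt), the giant matrix protein gene dpy (136839 nt) and the N-cadherin gene CadN (131288 nt). Coordinates are those of the files, build BDGP5, where they equal the annotation's. Reads at positions that several genes could claim were left out, after which 5 members (CG46244, CG43739, beat-IIIa, CG34106 and CG46308) had none of their own and 11 had fewer than 100, these 5 included. Pooled over libraries and members, 75.6% of the reads lay past the last coding base (3'UTR reads), 15.3% in introns and 9.03% in exons before the last coding base.

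Slob had the highest mean level of the members, followed by raw, capu, for and IA-2, but the order differed between blocks. Since each read marks 1 transcript end, these levels are not divided by length. Slob, which encodes a binding partner of the Slowpoke potassium channel, had 5899, 7620, 464 and 570 CPM in wild-type head replicates 1 to 4, and 715, 773, 18.6 and 31.6 in wild-type bodies. In the mutant it had 459 and 433 CPM in heads and 20.4 and 30.1 in bodies. raw, a restraint on JNK signalling, had 4974, 4865, 264 and 238 CPM in wild-type heads and 2217, 2404, 170 and 136 in wild-type bodies. Both genes were far higher in block 1 than in block 2 in either tissue, while the formin gene capu was lower there, at 227, 230, 390 and 452 CPM in wild-type heads. Neuronal markers (4 genes in the named regions) also differed, with 14653 to 46287 CPM in heads of block 1 and 3136 to 3279 in heads of block 2, and their part in these differences was not tested.

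**Figure D1:**
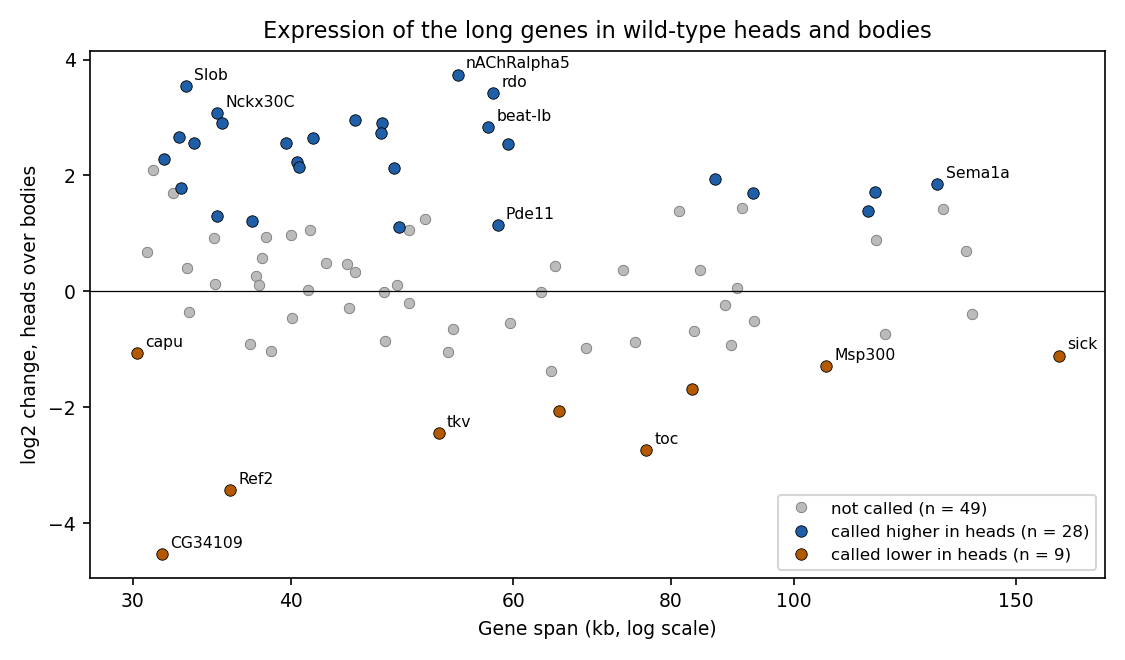
Log2 change in expression between wild-type heads and bodies (y axis, 4 libraries each) against gene span in kb (x axis, log scale) for the 86 long genes tested, 1 point per gene. The 28 genes called higher in heads and the 9 called lower are coloured, and both kinds occur from the shortest to the longest spans.

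Heads and bodies of the wild type were compared for expression with the block as a term. The members with the largest rises in heads were nAChRalpha5, Slob, rdo and Nckx30C, and those with the largest falls were CG34109, Ref2, toc and tkv. Of 107 members 86 had enough reads for the test, and 37 passed it (edgeR, adjusted p under 0.05), 28 higher and 9 lower in heads. Over all 2344 genes tested 46.6% were called, 16.8% higher and 29.8% lower. The median log2 change was 0.53 over the members and 0.03 over all genes. Across 2250 protein-coding genes tested, which share these libraries, Spearman's rho between span and log2 change was 0.35. Of the other 41 multi-exon genes of 30 kb or more in the named regions, 34 were tested, 12 rose and 2 fell, with a median of 0.62. With DESeq2 size factors the median over all genes was −0.09 and 38 members were called. Block 2 alone gave 58 of 96 and block 1 alone 11 of 74, with 1557 and 495 calls over all genes.

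nAChRalpha5, a subunit of the nicotinic acetylcholine receptor, had 219, 130, 313 and 420 CPM in wild-type heads and 23.7, 22.2, 10.2 and 12.8 in bodies. Every head library was above every body library (log2 change 3.74, SE 0.56, adjusted p = 0.000551). Nckx30C, a sodium/calcium-potassium exchanger, had 515, 633, 477 and 505 CPM in heads against 93.2, 66.7, 43.7 and 32.4 in bodies (3.07, SE 0.39, adjusted p = 0.000225). With nAChRalpha6 (1.70, adjusted p = 0.00619), all 3 tested members of the list of channels and receptors rose in heads. Slob passed at a log2 change of 3.55 (SE 0.48, adjusted p = 0.000316), although its heads of block 2 were below its bodies of block 1.

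The list of cell adhesion and axon guidance had 13 tested members, of which 6 rose in heads and 0 fell, with a median log2 change of 1.69. beat-Ib, of the beaten path family of axon guidance proteins, had 380, 191, 299 and 368 CPM in heads and 61.5, 30.6, 25.1 and 33.3 in bodies (2.83, SE 0.40, adjusted p = 0.00039). DIP-epsilon, which binds Dpr proteins in synaptic partnering, was even among heads at 322, 325, 302 and 318 CPM and had 38.7, 80.6, 46.5 and 26.4 in bodies (2.55, adjusted p = 0.00118). Nlg2, a neuroligin, had 44.5 ± 14.4 CPM (mean ± SD, n = 4) in heads and 8.02 ± 1.68 in bodies (adjusted p = 0.00117), with no overlap. The transmembrane semaphorin gene Sema1a rose by 1.85 (adjusted p = 0.000859), with 402, 299, 63.0 and 63.1 CPM in heads and 65.9, 41.7, 22.3 and 24.7 in bodies, where blocks differed and groups overlapped. Lar and CadN were not called. CadN had 26.1 and 16.2 CPM in heads of block 1 and 190 and 220 in heads of block 2, against 15.8 to 41.8 in bodies, and Lar had too few reads for the test, with 6.49 to 36.8 CPM in heads and 2.78 to 4.27 in bodies.

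Other members high in heads were rdo, named for its effect on the ocelli (3.42, SE 0.68), nolo (2.96), Tmtc2 (2.91) and Tmtc1 (2.64), whose products belong to a family of O-mannosyltransferases, and eys, an extracellular protein of the photoreceptor lumen (2.91). eys had 34.2, 38.9, 152 and 140 CPM in heads and 4.39, 2.78, 15.8 and 22.2 in bodies. dpr2 (2.73) and the peptidase-like gene Dpp10 (2.66) followed. Dpp10 had 16.2 CPM in head replicate 2 against 273 to 456 in the other heads, and it was no longer called without head replicate 1, 3 or 4 or body replicate 3 or 4. IA-2, a phosphatase-like protein of dense-core vesicles, had 1335, 750, 846 and 924 CPM in heads and 66.7 to 266 in bodies (2.56, SE 0.42, adjusted p = 0.000827).

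Lower in heads by the largest change was CG34109, with 0, 0, 2.63 and 2.18 CPM in heads and 24.6, 22.2, 40.9 and 46.1 in bodies (−4.53, SE 0.53, adjusted p = 0.000149). Ref2, of the family of mRNA export adaptors, had 0 to 7 CPM in heads and 22.2 to 42.8 in bodies (−3.42, adjusted p = 0.00123). toc, a microtubule-associated protein known from oogenesis, had 64.3, 13.0, 47.3 and 64.2 CPM in heads and 208, 139, 387 and 394 in bodies (−2.73, SE 0.39, adjusted p = 0.00039). tkv, the type I receptor for the BMP ligand Dpp, had 25.9 ± 12.2 against 123 ± 25.3 CPM (SD, n = 4; −2.45, adjusted p = 0.00234), and wb, a laminin alpha chain, fell by 2.07 on the log2 scale. The E3 ubiquitin ligase gene Trim9 fell by 1.68. Of 6 tested members of the cytoskeleton list, which by an error also holds the transcription cofactor ush, 4 fell: toc, capu, sick and Msp300, a giant spectrin-repeat protein. Of 6 signalling genes 2 rose, the phosphodiesterase genes Pde1c and Pde11, and tkv fell. The lists of RNA-binding proteins (2 tested) and transcription (4 tested) had 0 calls, and that of matrix and secreted proteins had wb alone of 3.

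Msp300 was no longer called without head replicate 2 or body replicate 1, capu without head replicate 1, and sick without head or body replicate 1 or 4. Counted over 3'UTR reads only, a setting chosen after seeing the data, 35 of 75 members were called, with 31 up and 4 down in heads and a median of 1.16. Over all genes 989 were called, with a median of 0.02. Under that count the log2 change of sick turned from −1.11 to 0.81, which was not called, and 78.7 to 88.0% of its intronic and 3'UTR reads in wild-type bodies were intronic. In bulk tissue, fewer cells of a type and less RNA per cell cannot be told apart. Neuronal markers summed to 3136 to 46287 CPM in wild-type heads and 177 to 3078 in wild-type bodies, and their part in the members' changes was not tested.

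**Figure D2:**
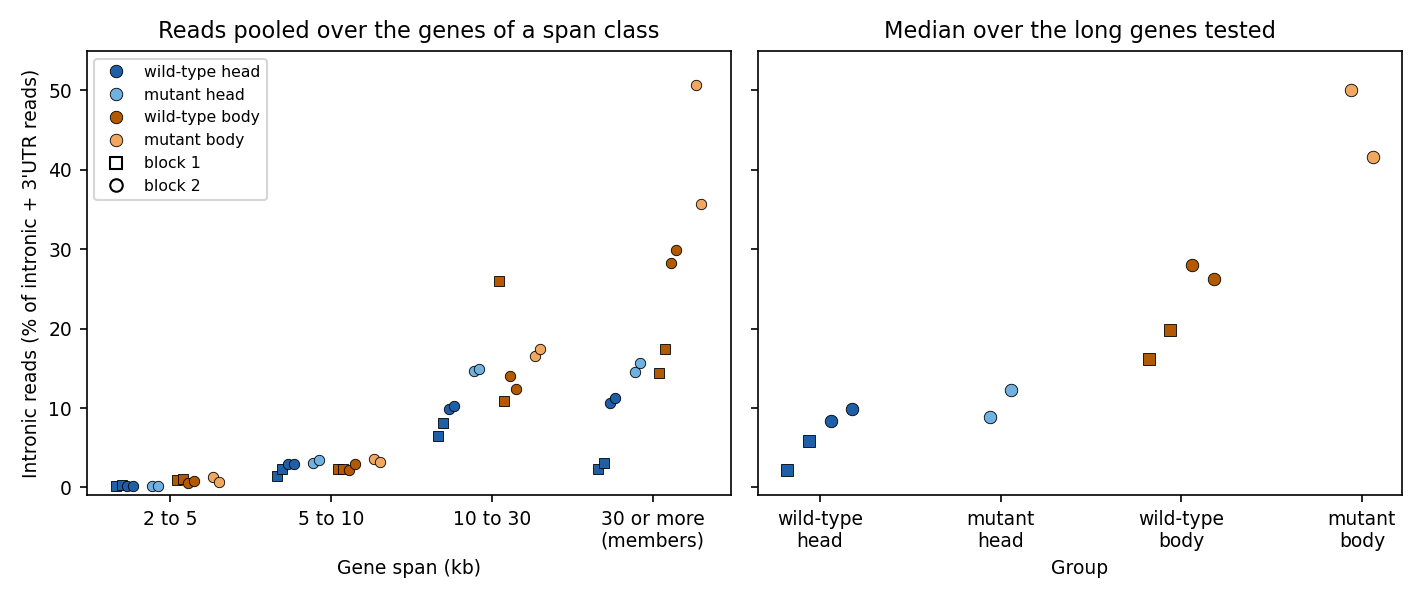
Intronic reads as a percent of intronic and 3'UTR reads, 1 point per library (squares block 1, circles block 2), pooled over the genes of each span class (left) and as the median over the 69 long genes tested in the wild type (right). The long genes ran from 2.29% in a wild-type head library to 50.7% in a mutant body library when pooled, and within the right panel bodies sit above heads of the same genotype.

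Intronic site use was measured as the intronic share of a gene's intronic and 3'UTR reads. In wild-type heads the median share over the 69 members tested was 2.20, 5.88, 8.39 and 9.88% in replicates 1 to 4, and in wild-type bodies 16.1, 19.9, 28.0 and 26.2%. All body libraries were above all head libraries, in both blocks. Pooled over all members the share was 2.29, 3.10, 10.6 and 11.3% in heads and 14.4, 17.4, 28.3 and 29.8% in bodies. Genes of 10 to 30 kb, pooled likewise, had 6.4 to 10.3% in heads and 10.8 to 26.0% in bodies, and genes of 2 to 5 kb had at most 1.03% in any wild-type library. The members' intronic reads were also taken as CPM per kb of intron, here without TMM scaling. They amounted to 0.254 and 0.277 in heads of block 2 and 0.319 and 0.336 in bodies of block 2. In block 1 the values were 0.0681 and 0.122 in heads and 0.254 and 0.328 in bodies. Other sets had more intronic reads per kb than the members. In block 2, genes of 10 to 30 kb had 1.98 and 2.19 in heads and 1.65 and 1.43 in bodies. The other 41 genes of 30 kb or more had 0.764 and 0.870 in those heads and 0.997 and 0.830 in those bodies. The TMM factors left out ran from 0.657 in wild-type head replicate 1 to 1.27 in wild-type body replicate 2.

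By gene, 27 of 69 members passed the test (edgeR), 1 with a higher and 26 with a lower intronic share in heads. Over all 359 genes tested 24.5% were called, 2.51% higher and 22% lower. The median log2 change in the ratio of intronic to 3'UTR reads was −1.92 over the members and −0.98 over all genes tested. The other 41 genes of that span had 29 tested, 7 with a lower and 2 with a higher share in heads and a median of −1.25. Members make up 69 of those 359, so that the values over all genes tested include theirs. The 290 tested genes that are not members had a median of −0.84. Block 2 alone gave 38 of 83 calls with a median of −1.56, and 129 calls over all genes. Block 1 alone, with 2 libraries a group, gave 0 of 38, with a median of −2.45.

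Contrasts were wide in CG4168, CadN2, spir, beat-Ib and rdo. CG4168 had 27.3, 60, 6.67 and 23.5% in heads and 98.0, 100, 82.6 and 100% in bodies (log2 change −6.25, adjusted p = 0.000214). spir, the actin nucleator that works with capu, had an intronic share of 37.0, 40, 37.5 and 27.5% in heads and 97.7, 97.9, 98.2 and 96.4% in bodies (log2 change −6.17, SE 0.64, adjusted p = 1.38e-05). Heads and bodies were far apart in both blocks. Of its intronic reads 93.0% came from the site at 2L:20339940, 28721 nt from the start of a gene of 37168 nt, which held 1186 reads in wild-type bodies and 24 in wild-type heads. beat-Ib had 1.06, 5.08, 0.587 and 2.37% in heads and 67.1, 54.5, 55.6 and 51.3% in bodies (−6.22, SE 0.73, adjusted p = 1.5e-05). At the level of reads, its 3'UTR reads fell from 182 to 376 CPM in heads to 11.2 to 20.2 in bodies, while its intronic reads were 1.75 to 9.74 CPM in heads and 14.0 to 41.3 in bodies.

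fipi, an immunoglobulin-domain protein known from the timing of courtship song, differed far more between tissues in block 2: its share was 0.756 and 0.580% in those heads and 71.1 and 71.2% in those bodies, against 0% in heads and 6.67 and 0% in bodies of block 1 (−8.37, adjusted p = 1.5e-05). The body libraries of block 1 held 15 and 20 reads of this gene, and those of block 2 held 149 and 156. A single site, at 2L:4751139, gave 91.8% of its intronic reads. CadN2, a paralogue of CadN, had 0, 16.7, 20 and 24.1% in heads and 72.7, 66.7, 90.6 and 87.5% in bodies (−4.72, adjusted p = 0.000232). CadN itself had 12.3 ± 17.6% (SD, n = 4) against 38.9 ± 15.96% (−2.39, adjusted p = 0.0247), with overlapping groups, and the call was lost without any 1 wild-type library of block 2. rdo had 8.89, 17.5, 5.42 and 3.38% in heads and 45, 80, 64.7 and 74.1% in bodies (−4.65, adjusted p = 0.000299), and dpr2 2.61 ± 3.04% against 55.4 ± 16.5% (−5.83, adjusted p = 0.000283).

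Of 12 tested members of the adhesion list, 7 had a lower intronic share in heads and 0 a higher. The longest gene, sick, was even within each tissue at 38.9, 41.7, 40 and 38.7% in heads and 83.8, 88.0, 78.7 and 84.6% in bodies (−2.92, SE 0.61, adjusted p = 0.00245). tkv had 88.9, 66.7, 29.3 and 27.3% in heads, the first pair from 9 and 3 reads, and 80.9 to 98.2% in bodies (−3.04, adjusted p = 0.00722), and was likewise lost without any 1 wild-type library of block 2. Unlike these, Msp300 had a higher intronic share in heads, 37.5, 50, 45.8 and 63.2%, than in bodies, 1.75, 14.8, 24.2 and 13.5% (3.00, SE 0.84, adjusted p = 0.0154). The head values rest on 4 to 24 reads, and the call was lost without head replicate 4 or body replicate 4.

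**Figure D3:**
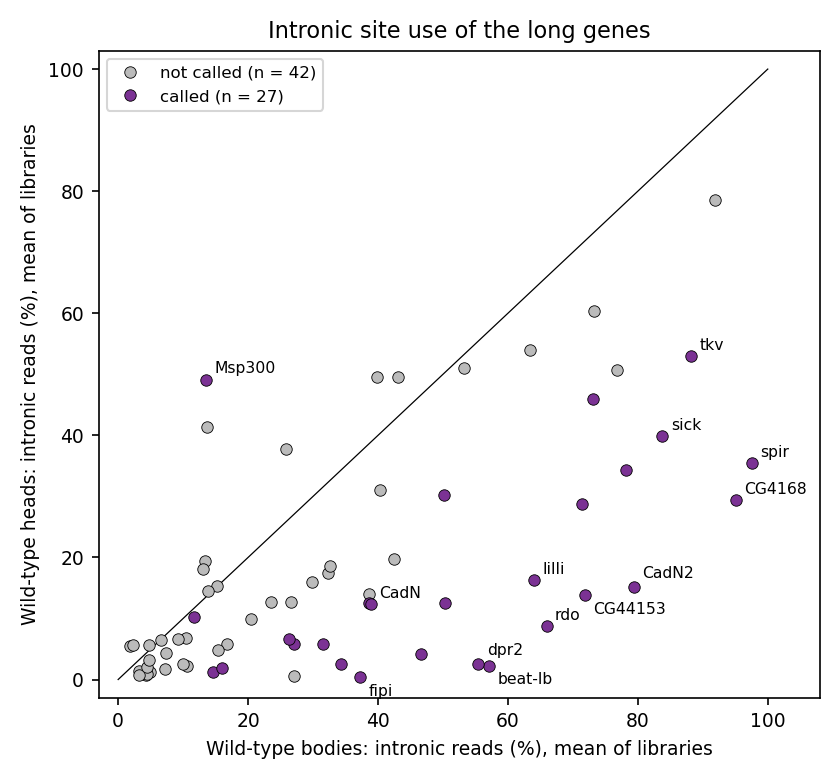
Intronic share in wild-type heads (y axis, percent) against wild-type bodies (x axis, percent), each the mean over the libraries with reads, for the 69 long genes tested. Most points lie below the line of equality; Msp300, at 49.1% in heads and 13.6% in bodies, is the only called gene above it.

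Intronic sites were spread over the genes. Members held 244 intronic sites with at least 10 pooled reads, in 85 genes, of which 56 lay in the first of 4 equal parts of the span, 55 in the second, 74 in the third and 59 in the last. Few genes gave much of the signal: spir held 8.94% of all intronic reads of the members, CenG1A, an ArfGAP, 6.63%, the steroid receptor coactivator gene tai 5.31% and bun, of the TSC22 family, 4.17%. tai had its main site 1652 nt from its start, at 2L:9168430, with 142 reads in wild-type heads and 314 in wild-type bodies. All of these reads came from block 2. The main sites of bun, kuz, ed and CG15431 likewise held 0 reads in the wild-type libraries of block 1. Those of spir, CenG1A, CG4168 and tkv held reads in both blocks. Without the 5 genes with the most intronic reads, the pooled share was still 2.24 to 8.99% in wild-type heads and 9.21 to 23.2% in wild-type bodies.

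The mutant was then compared with the wild type within block 2, with 2 libraries a group and all 4 groups in the fit. Marker lists of several cell types were lower in the mutant than in the wild type of block 2. In bodies fat body markers summed to 185 to 277 against 879 to 15446 CPM, muscle to 767 to 946 against 2141 to 3706, glia to 661 to 900 against 1477 to 1498, gut to 1614 to 1814 against 2337 to 3055 and neurons to 138 to 139 against 177 to 260. In heads fat body markers summed to 244 to 475 against 1128 to 1442 CPM, muscle to 1434 to 2620 against 3249 to 3533, glia to 3618 to 4320 against 6105 to 6577 and neurons to 2475 to 2904 against 3136 to 3279. Accessory gland markers in bodies summed to 6687 to 8634 against 8645 to 9272 CPM, close but without overlap. Eggshell markers, low throughout, summed to 0.791 to 1.02 against 1.71 to 2.79 CPM in bodies and 0.801 to 0.954 against 3.50 to 4.35 in heads. The remaining comparisons overlapped between genotypes. Photoreceptor markers summed to 51.1 to 84.7 against 27.9 to 59.7 CPM in bodies and 25321 to 27847 against 26127 to 29681 in heads. In heads gut markers summed to 138 to 194 against 110 to 214 CPM and accessory gland markers to 19.1 to 143 against 40.3 to 224. The part of these cell types in the differences between genotypes was not tested.

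Pooled over the members, intronic shares were higher in mutant than in wild-type bodies, while in the other genes of the same span they were lower. Over the same 69 genes the median share was 50 and 41.7% in mutant bodies, against 28.0 and 26.2% in wild-type bodies of block 2, and pooled over all members it was 50.7 and 35.7% against 28.3 and 29.8%. Mutant heads had medians of 8.89 and 12.2% against 8.39 and 9.88%, where the groups overlap, and pooled shares of 14.5 and 15.7% against 10.6 and 11.3%. Pooled shares were also higher in mutant heads for genes of 10 to 30 kb, at 14.6 and 14.9% against 9.87 and 10.3% in wild-type heads of block 2. For the other 41 genes of 30 kb or more they were 7.82 and 7.40% against 6.68 and 7.09% in the same heads. Genes of 10 to 30 kb had pooled shares of 16.5 and 17.4% in mutant bodies and 14.0 and 12.4% in wild-type bodies of block 2. The other 41 genes of 30 kb or more had pooled shares of 26.5 and 27.8% in mutant bodies and 35.7 and 30.3% in wild-type bodies of block 2. In that set sls, a titin-like muscle gene on 3L, held 24.8% of the intronic reads. Without TMM scaling, the members' intronic reads in mutant bodies amounted to 0.553 and 0.465 CPM per kb of intron. These values were above the 0.319 and 0.336 of wild-type bodies of block 2.

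Of 83 members tested in bodies, 6 passed (edgeR), all with a higher share in the mutant, where 5.71% of 403 genes were called, 4.22% higher and 1.49% lower. The median log2 change was 0.87 over the members, 0.45 over all genes tested and 0.00 over the 27 tested of the other 41 long genes, of which 1 was called, with a lower share. Without mutant body replicate 2 the median was 1.19 over the members and 0.65 over all genes tested. Without mutant body replicate 1 it was 0.60 and 0.11. CG9171 had 19.4 and 26.2% in wild-type bodies and 98.1 and 62.2% in mutant bodies (4.33, SE 0.97, adjusted p = 0.000706). Its site at 2L:5772885, 27368 nt from the start, held 143 and 64 reads in mutant bodies, 2 and 1 in wild-type bodies of block 2, and 0 in those of block 1 and in all heads. Ref2 had 4.35 and 2.33% in wild-type and 75 and 42.5% in mutant bodies (5.05, SE 1.1, adjusted p = 0.00049), and its site at 2L:12645840, only 516 nt from the start, held 16 and 64 reads in mutant bodies and 0 in all wild-type libraries.

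Tmtc1 had 37.5 and 18.2%, from 8 and 11 reads, in wild-type bodies and 80 and 100%, from 5 and 24 reads, in mutant bodies (5.80, SE 1.56, adjusted p = 0.0124). beat-Ib had 55.6 and 51.3% against 92.5 and 77.6% (2.50, SE 0.83, adjusted p = 0.0486), with 140 reads summed over both mutant bodies at 2L:15926730, 2 and 13 in wild-type bodies of block 2 and 0 in heads. Bsg, the fly basigin, had 12.8% in both wild-type bodies and 70.9 and 26.0% in mutant bodies (2.59, adjusted p = 0.039), and uif, a transmembrane protein of the tracheal apical surface, 5.36 and 2.44% against 46.7 and 30% (3.76, adjusted p = 0.0443). Of 12 tested genes of the adhesion list 1, beat-Ib, passed in bodies, with a median of 1.20 over the list. In all 6 genes the mutant bodies were above both wild-type bodies of block 2, but the genes were picked by this same comparison. Of the 83 members tested, 36 had higher and 5 lower shares in mutant bodies without overlap. The same count was not made over all genes tested, so it cannot show whether this is particular to the long genes. The calls for Bsg, uif and beat-Ib were lost in the fit of body libraries alone and without any 1 library of block 2 except mutant body replicate 2. Those for Ref2, CG9171 and Tmtc1 were lost without wild-type body replicate 4, that for CG9171 also without wild-type body replicate 3 and that for Tmtc1 without mutant body replicate 2. Tmtc1 had too few reads for the test with body libraries alone or without wild-type head replicate 3, as had Ref2 without mutant body replicate 2, and with every site before the last coding base counted as intronic 0 members were called.

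In heads 2 of 83 members passed, where 1.24% of 403 genes were called, 0.496% higher and 0.744% lower, and medians were 0.60 over the members and 0.03 over all genes tested. Bsg had 6.81 and 5.85% in wild-type heads of block 2 and 33.1 and 27.4% in mutant heads (2.66, SE 0.76, adjusted p = 0.0454). With exonic sites before the last coding base added, Bsg turned to −0.35 in heads and −0.55 in bodies. CG11030 moved the other way, from 31.1 and 39.1% to 3.57 and 4.23% (−3.66, SE 1.06, adjusted p = 0.0454). Both calls were lost without any 1 library of block 2 except the mutant bodies. CenG1A had 85.6 and 80.9% in wild-type heads and 95.9 and 96.2% in mutant heads (2.28, adjusted p = 0.17), and its intronic reads stood at 72.7 and 78.4 CPM against 248 and 262. sick had 40 and 38.7% in wild-type heads of block 2 and 60.8 and 61.8% in mutant heads, with 80 reads at 2L:19944100 in mutant heads and 0 there in the wild type. Whether the mutant effect differed between heads and bodies was tested as an interaction, which called 0 of 83 members and 0% of all genes (edgeR; 5 members at an unadjusted p under 0.05, 0 by limma). Its median over the members was 0.09 without mutant body replicate 1 and −1.07 without mutant body replicate 2, against 0.01 and −0.62 over all genes.

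**Figure D4:**
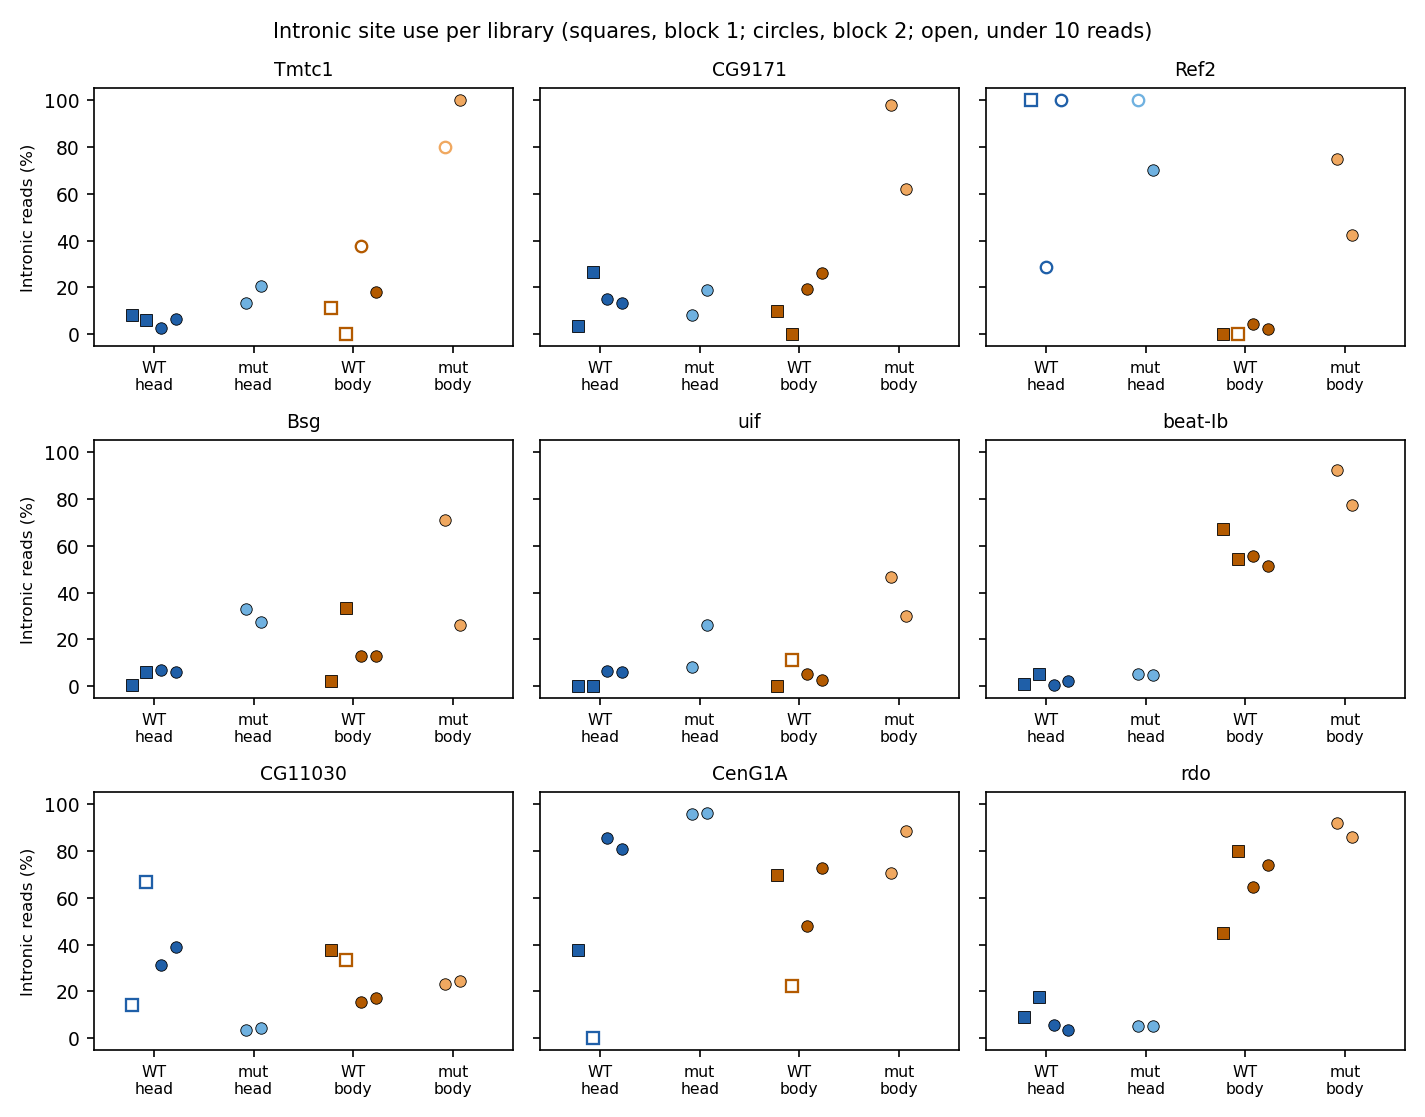
Intronic share (percent) in each library for the 7 members called in the mutant and for CenG1A and rdo, by group (WT, wild type; mut, mutant); open symbols rest on fewer than 10 reads. Mutant bodies lie above the wild-type bodies of block 2 in Tmtc1, CG9171, Ref2, Bsg, uif and beat-Ib, and mutant heads below wild-type heads of block 2 in CG11030.

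Few or none of the long genes were called for expression between genotypes. In heads 0 of 99 members were called by edgeR, where 0.758% of 2772 genes were called, 0.397% higher and 0.361% lower. By edgeR 12 members had an unadjusted p under 0.05. DESeq2 called 5 members, and 104 genes over all genes. Hr38, an orphan nuclear receptor, had 933 and 412 CPM in wild-type heads of block 2, 2.01 and 0 in those of block 1, and 130 and 131 in mutant heads (−2.38, adjusted p = 0.0973). DIP-epsilon had 302 and 318 CPM against 107.8 and 84.1 (−1.69, SE 0.37, adjusted p = 0.102). MRP, an ABC transporter, had 34.1 and 33.7 against 96.3 and 78.5 (1.36, adjusted p = 0.13). Wild-type and mutant heads of block 2 did not overlap in these 3 genes. With 2 libraries a group this was common: of the 99 members, 29 were higher and 34 lower in mutant heads without overlap. It was not counted over all 2772 genes tested, so that the rate among other genes is not known here.

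In bodies 3 of 99 members passed, rdo and robo3 higher and Bsg lower, where 2.81% of 2772 genes were called, 1.41% in each direction. rdo had 15.8 and 23.0 CPM in wild-type bodies of block 2 and 103.2 and 72.8 in mutant bodies (2.23, SE 0.40, adjusted p = 0.0376). Its 3'UTR reads were 5.58 and 5.97 against 8.17 and 10.3 CPM and its intronic reads 10.2 and 17.1 against 95 and 62.5, of which the site at 2L:18062979 held most. robo3, an axon guidance receptor for Slit, had 2.79 and 1.71 against 68.4 and 26.1 CPM (4.41, SE 0.80, adjusted p = 0.0379). None of its reads in bodies of either genotype lay past the last coding base, and 2 and 1 of the 67 and 33 reads in mutant bodies were intronic, so that the rise lay in exons before the last coding base. Bsg had 495 and 440 against 156 and 142 CPM (−1.61, SE 0.33, adjusted p = 0.0454). The median log2 change over the members was 0.11 with all libraries of block 2. Without mutant body replicate 2 it was 0.13, against −0.10 over all genes, and without replicate 1 it was −0.10, against −0.05. Over 3'UTR reads alone 0 of 89 were called, and the median turned to −0.35, against 0.05 over all genes. All 3 calls were lost in the fit of body libraries alone and without either wild-type body of block 2, that for robo3 also without mutant body replicate 1, and those for rdo and Bsg without any 1 head library of block 2. The interaction called 0 of 99 members and 0% of all genes (edgeR; 13 members at an unadjusted p under 0.05, 1 by DESeq2). Its median over the members was 0.10 without mutant body replicate 1 and −0.23 without mutant body replicate 2, against 0.16 and 0.18 over all genes.

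Use of the distal of the 2 most used 3'UTR sites was tested where both had enough reads, which left 32 members. Distal sites were used more in wild-type heads by both tested members of the cytoskeleton list (toc and capu), 2 of 7 of the adhesion list, and 1 of 2 each of the signalling, transcription and RNA-binding lists. The median distal share over the members was 86.2, 75, 80.6 and 79% in wild-type head replicates 1 to 4 and 62.5, 37.5, 60.3 and 62.0% in wild-type bodies, with no overlap. Of the 32, 10 passed, 9 with more distal use in heads and 1 with less, where 18.2% of 725 genes were called, 17.9% higher and 0.276% lower. The median log2 change in the ratio of distal to proximal reads was 1.55 over the members and 0.87 over all genes tested. With the replicate number as a block, 16 of 32 were called, 14 higher and 2 lower, with 294 calls over all genes. Within block 1 alone 0 of 23 members were called, and within block 2 alone 14 of 33, with 0 and 247 calls over all genes.

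side-II, of the sidestep family of guidance proteins, had 100% distal use in heads (replicates 1, 3 and 4, with 14, 93 and 81 reads, and no reads in replicate 2). Bodies gave 2.67, 0, 33.3 and 61.5%, the third from 3 reads (adjusted p = 0.00274, with no fold given because its proximal site had 0 reads in all heads). The pair, at 2L:14908352 and 2L:14907491 on the minus strand, spans 861 nt. toc had 77.8, 0, 77.8 and 69.2% in heads, where the 0 is 1 read, and 1.43, 0, 4.70 and 3.25% in bodies (6.55, SE 0.76, adjusted p = 0.000811). Its bodies, with 39 to 431 reads each, used almost exclusively the proximal site. bun had 99.8, 98.2 and 98.6% in head replicates 1, 3 and 4 and 80.2, 25.0, 74.3 and 51.6% in bodies (6.15, adjusted p = 0.00569), over 2075 nt.

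Pde1c, a cyclic nucleotide phosphodiesterase, had 92.7, 72.2, 56.6 and 60.1% in heads and 34.5, 22.2, 4 and 17.1% in bodies (3.68, SE 0.67, adjusted p = 0.00548). dpr3 had 94.1 ± 5.95% against 36.9 ± 22.7% (SD, n = 4; adjusted p = 0.00401) and DIP-epsilon 86.3 ± 8.35% against 55.2 ± 8.16% (adjusted p = 0.0222), both without overlap. capu, at 99.0 ± 0.558% in heads and 90.5 ± 3.93% in bodies, changed by less (3.30, adjusted p = 0.00425). DIP-epsilon was no longer called without any 1 wild-type library of block 2, and bru2, at an adjusted p of 0.0486, was lost without head replicate 1, 3 or 4 or body replicate 1 or 4. Its paralogue bru1, a translational repressor and splicing regulator, went the other way, with 0, 40, 0 and 0.282% in heads, where the 40% is from 5 reads, and 66.7, 88.2, 14.6 and 28.4% in bodies (−6.40, SE 1.18, adjusted p = 0.00569).

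**Figure D5:**
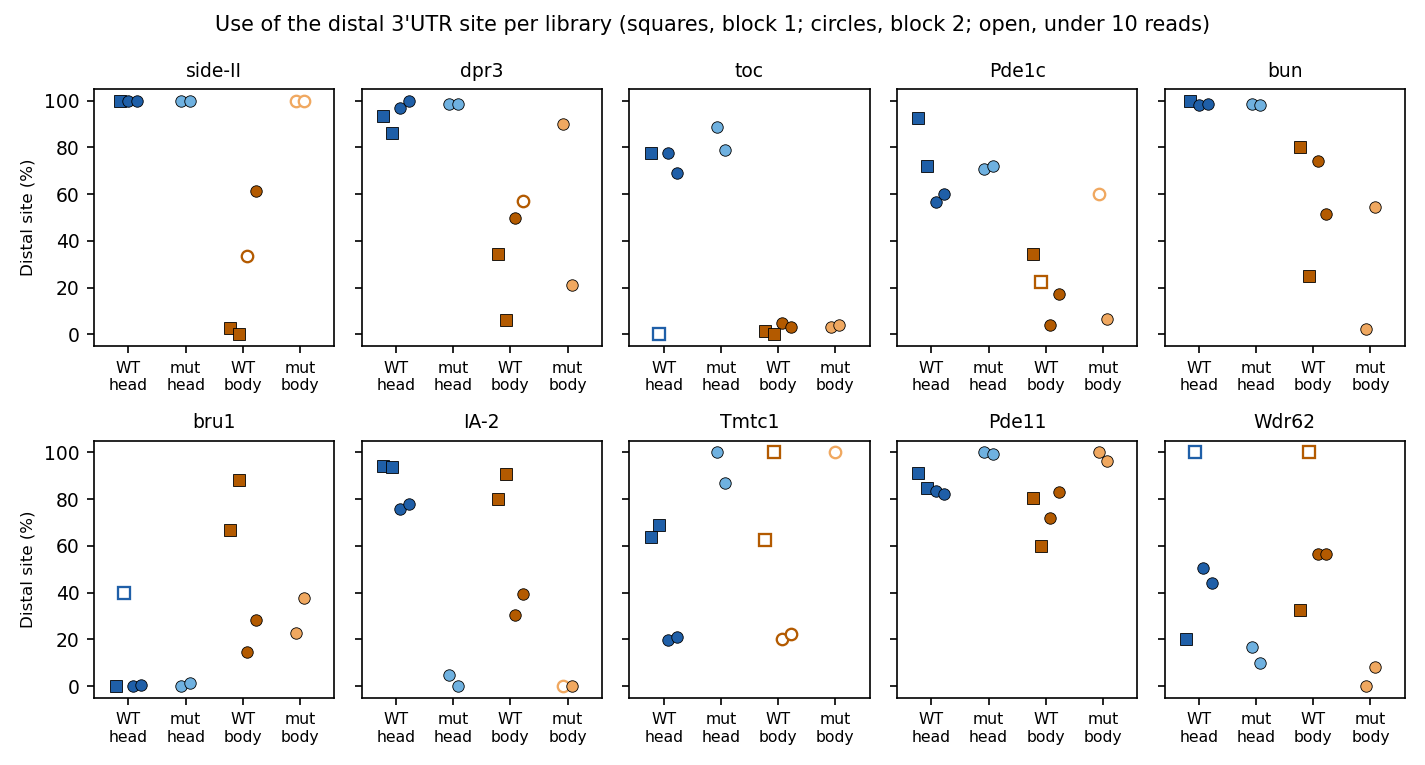
Use of the distal 3'UTR site (percent of distal and proximal reads) in each library for 10 long genes by group; open symbols rest on fewer than 10 reads. Heads are above bodies in side-II, dpr3, Pde1c and bun in the wild type, bru1 is reversed, and mutant IA-2 lies between 0 and 4.67% in both tissues.

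IA-2 had the largest called change in distal use between genotypes among the members. Its proximal and distal sites, at 2L:1013073 and 2L:1009748 on the minus strand, are 3325 nt apart. Wild-type heads used the distal site for 94.1, 93.8, 75.7 and 78.0% of 559, 144, 654 and 600 reads, and mutant heads for 4.67 and 0% of 107 and 121 reads (−7.18, SE 0.86, adjusted p = 0.000486). Wild-type bodies gave 80.2, 90.9, 30.4 and 39.5%, and mutant bodies 0% of 7 and of 16 reads (−5.69 within block 2, adjusted p = 0.0915). All mutant libraries were below all wild-type libraries. Between wild-type heads and bodies the change was 2.18 (SE 0.47, adjusted p = 0.0115), a call lost without any 1 wild-type library of block 2. The pair held only part of the gene's 3'UTR reads in mutant heads, 107 of 433 and 121 of 493. Of those 433 and 493 reads the distal site had 5 and 0 and the proximal site 102 and 121, while the site between them at 2L:1010423 had 74 and 46, or 17.1 and 9.33%, against 2.07 and 3.14% in wild-type heads of block 2. Total IA-2 reads were 846 and 924 CPM in wild-type heads of block 2 and 455 and 428 in mutant heads, a difference that was not called.

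In heads 4 of 32 members passed between genotypes, where 4.8% of 771 genes were called, 1.69% higher and 3.11% lower. Beside IA-2, Wdr62, a spindle and centrosome protein, used the distal site less in the mutant, 16.8 and 9.92% against 50.7 and 44.2% (−2.58, SE 0.65, adjusted p = 0.0421). Pde11 went from 83.5 and 82.4% to 100 and 99.4% (5.53, SE 0.96, adjusted p = 0.00511) over sites 1253 nt apart, and Tmtc1 from 19.7 and 20.9% to 100 and 87.0% (5.39, SE 0.97, adjusted p = 0.00904) over sites 76 nt apart. Its wild-type heads of block 1, at 63.6 and 68.8%, lay between. In bodies 2 of 32 passed, where 5.32% of 771 genes were called, 1.82% higher and 3.5% lower. Wdr62 went from 56.3 and 56.7% to 0 and 8% (−5.01, SE 0.91, adjusted p = 0.00524), and Tmtc2 from 100 and 72.7%, of 3 and 11 reads, to 12.5 and 15.4% (−4.47, SE 1.06, adjusted p = 0.0272) over sites 67 nt apart. Pde11 had 72.2 and 83.0% in wild-type and 100 and 96.4% in mutant bodies (3.22, adjusted p = 0.0718).

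Median changes between genotypes were 0.05 in heads and 0.10 in bodies over the members, and −0.04 and −0.25 over all genes tested. The body median of the members depended on the fit, at −1.21 with body libraries alone, −0.48 in all 12 libraries and −0.88 without wild-type head replicate 3. The interaction called 0 of 32 members and 0% of all genes (edgeR; 3 members at an unadjusted p under 0.05, 0 by limma). Its median over the members was 0.80 without mutant body replicate 1 and 0.48 without mutant body replicate 2, against 0.20 and 0.20 over all genes. The body comparison then had medians of −0.45 and −0.29, against −0.29 and −0.32 over all genes. Tmtc1 was no longer called in heads without mutant head replicate 1, Pde11 without either mutant head, and Wdr62 without any 1 of the 8 libraries except the mutant bodies, while IA-2 was called in heads under every alternative run. In bodies Wdr62 was lost without wild-type body replicate 4 and Tmtc2 without any 1 library of block 2 except the mutant bodies.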

How the data were processed

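Per the labels, poly(A) ends of RNA from adult heads and bodies were sequenced by 3'READS or 3'READS+. The authors deposited raw read counts per strand and position for each library. Bowtie2 and the build BDGP5 are named, per the submitters' processing notes. Which library had which protocol, and how reads of near-identical copies and of internal priming were treated, is not given in the sources here. No genome sequence was used, so no sequence is shown.

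Genes were named from a BDGP6 annotation only on 2L up to 22.3 Mb and 3L up to 4.92 Mb. There 61.7% and 57.5% of positions with at least 200 reads lay within 10 nt of annotated transcript ends at the same coordinates, against 0.256% and 0.227% after a shift of 5000 nt. Of the reads there, 90.2% were assigned to 1 gene on their own strand. A position in exons of a single gene went to it, and other positions claimed by several genes (9.03%) were left out. Positions within 24 nt were joined into sites. Intronic sites lie before the last coding base and outside all annotated exons.

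Tests ran over all genes of the named regions with edgeR 4.0.16 (R 4.3.3), quasi-likelihood, TMM scaling, filterByExpr and Benjamini-Hochberg adjustment at 0.05. Site tests compared paired columns of reads, with a term per library, a mean of at least 20 reads, and at least 5% at the minor 3'UTR site or 1% in each class. For the tissue contrasts all 8 wild-type libraries were fitted with a block term, and genotype contrasts and their interaction the 8 libraries of block 2. The fits were tested on simulated counts. Counting error is the only error that read numbers cover.

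Replicate numbers were checked for pairing. Deviations from the group means of same-numbered wild-type heads and bodies correlated at 0.700 to 0.768, and every pair passed a criterion of 0.1. Differently numbered pairs within a block passed too, at 0.130 and 0.144 in block 1 and 0.758 and 0.698 in block 2. The criterion therefore cannot tell pairing by number from a shared block. Within blocks the differences of replicates correlated at 0.691 in block 1 and 0.027 in block 2. The tissue results printed use the block of sample numbers and not pairing by replicate number. Values with the replicate number as a block are printed where a count moved by over 1.5 times. Between mutant heads and bodies the correlation was −0.003.

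The members, the role lists, the tests and the alternatives were chosen with earlier results of these data known. Named genes are, for expression, up to 12 called in each direction with a mean of at least 10 CPM (reads per 1000000 assigned in the named regions, TMM-scaled); for sites, up to 8 per direction whose means differ by 5 or more percentage points; where fewer than 3 were called, the 5 (expression) or 3 (sites) with the smallest p; the 5 longest and 5 highest genes; those at the limits of the rule; and up to 3 of each role list. Others were named after their values were seen (such as the intronic shares of fipi, sick, tkv and CadN). Alternatives used DESeq2 1.42.0, limma 3.58.1 on log2 ratios with 0.5 reads added, other filters, each block or tissue alone and each library left out. Python 3.11.15, pandas 2.3.3, numpy 2.4.6 and scipy 1.17.1 were also used.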

Additional observations from a re-analysis of the deposited data

Results flagged for a closer look

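Among 118 groups of 4 libraries examined for named genes, 5 held a library far from the other 3 by Dixon's criterion, and chance gives about 1 in 20 groups. The distal share of bru1 was 40% in wild-type head replicate 2, on 5 reads, and 0 to 0.282% in the other heads. That of toc was 0% in the same head library, on 1 read, against 69.2 to 77.8%. bru2 had a distal share of 100% in wild-type body replicate 2, on 1 read, against 83.9 to 84.8%. lilli, a subunit of the super elongation complex, had 68.2 CPM in wild-type head replicate 2 and 29.4 to 32.4 in the other heads. For CG4168 the intronic share was 82.6% in wild-type body replicate 3 and 98.0 to 100% in the other bodies. Of the 5 values, 4 came from replicate 2, and the replicate 2 libraries of the wild type had the fewest reads on the long genes in each tissue.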

How the results depend on the processing

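Counts below are long genes called, mostly followed in parentheses by the count over all genes tested, long genes included. For intronic use between genotypes and for the interaction, counts over all genes stand in separate sentences, except for fits without 1 library. Between wild-type heads and bodies, expression gave 11 (495) calls in block 1 alone, 58 (1557) in block 2 alone and 37 (1092) in both together. Distal use gave 0 (0) and intronic use 0 (0) in block 1 alone, and the replicate block gave 16 (294) for distal use. Leaving out 1 library gave 12 to 33 (43 to 112) for intronic use. In mutant bodies, expression gave 12 (208) with DESeq2, 19 (765) in all 12 libraries with the replicate block and 0 (32) with body libraries alone. It gave 10 (216) with no filter and 0 (34) over 3'UTR reads. In mutant heads it gave 5 (104), 23 (726), 13 (361) with head libraries alone, 2 (84) and 1 (22). Distal use gave 8 (246) in bodies and 9 (211) in heads in all 12 libraries with the replicate block. It gave 1 (31) and 13 (197) within the tissue alone, and 1 (47) and 2 (32) from positions of at least 5 reads. Over all genes, intronic use in mutant bodies and heads gave 104 and 59 calls in all 12 libraries with the replicate block. It gave 8 and 44 within the tissue alone, 6 and 1 with every site before the last coding base, and 16 and 1 by limma. Heads gave 5 from positions of at least 5 reads. The interaction gave 12 for expression with DESeq2. With the replicate block within genotype it gave 0 for expression and intronic use and 2 for distal use. Counts of long genes follow. Intronic use gave 29 and 17, 2 and 12, 0 and 0 with every site before the last coding base, 3 and 0 by limma, 1 in heads from positions of at least 5 reads, and 0 to 16 and 0 to 7 without 1 library. The interaction gave 1 for expression with DESeq2, and without 1 library 0 to 12 for expression, 0 to 5 for distal and 0 to 6 for intronic use; its fit with the replicate block within genotype gave 0 for each.

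Single genes changed sign in 10 cases. bru1 expression in heads against bodies was 0.39 in block 2 alone and −0.75 to 0.19 without 1 library, and bun ran from −0.16 to 2.05. Over 3'UTR reads lilli was 0.13, sick 0.81, CenG1A in mutant heads −0.57 and CG9171 in the interaction 0.18. Hr38 in mutant heads was 4.01 with the replicate block in all 12 libraries, and Bsg intronic use was −0.55 in bodies and −0.35 in heads with every site before the last coding base. The causes were not tested. Libraries of 3311 to 16005 reads on the long genes limit what can be called, and shares from under 10 reads carry little.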
